A study of Homo sapiens with 9 samples.

Results

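Wnt proteins reach the cell through 2 kinds of receptor: the Frizzled proteins, which cross the membrane several times and bind the ligand, and LRP5 and LRP6, co-receptors that cross the membrane a single time and bind the same ligand. When both are brought together, the tail of LRP5 or LRP6 is phosphorylated and recruits Axin, and β-catenin escapes degradation. Frizzled proteins also act without LRP5 and LRP6, in planar cell polarity and other β-catenin-independent signaling. The 10 receptor genes described here are FZD1 to FZD8, LRP5 and LRP6. They were found by symbol among 31080 reference genes (56252 features) in each library. Each lay on a feature of its own, and all 10 passed the filter on low values.

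The cells were A549, a line derived from a human lung cancer, given scrambled siRNA, siCyclin K#1 or siCyclin K#2 at 50 nM for 48 h, with 3 libraries of each group. The comparison asks how the transcriptome of these cells changes when Cyclin K, a partner of transcriptional kinases that act on RNA polymerase II, is depleted. All cells are of 1 line without any added genotype, the scrambled group controls for transfection, and the receptors were read as mRNA only. Expression was given as FPKM, the number of fragments scaled to gene length and library depth, so levels can be set side by side between genes. The series calls the samples of a group independent without saying whether they were separate cultures, so p-values measure the spread between these libraries.

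CCNK, which encodes Cyclin K, fell from 7.02 ± 0.107 FPKM (SD, n = 3) in scrambled libraries to 0.809 ± 0.0857 with siCyclin K#1 and 0.844 ± 0.0661 in the siCyclin K#2 group, a log2 fold change of -2.94 over both siRNAs. CCND1, the Cyclin D1 gene that the study turns on, fell from 72.5 ± 0.546 FPKM to 16.7 ± 0.329 and 20.7 ± 0.685. Depth estimated from the low values was 31333749 to 33767961 reads a library, and no library was a copy of another. Of the epithelial markers, KRT8 and KRT18 were high in all libraries, CDH1 was at 1.19 to 4.6 FPKM and EPCAM was at 0 to 0.279 FPKM. The alveolar markers SFTPC, SFTPB and NKX2-1 stayed at 0.114 FPKM or less and AGER at 0.605 to 1.83, and the 3 markers of NRF2-high A549 cells, AKR1C1, AKR1B10 and ALDH1A1, were at 19.6 to 33.0, 128 to 332 and 529 to 982 FPKM. AKR1B10 was lower with both siRNAs (means of 327, 142 and 187 FPKM in the scrambled, siCyclin K#1 and siCyclin K#2 groups) and ALDH1A1 higher (550, 826 and 921 FPKM). Endothelial markers summed to at most 0.0629 FPKM, and the leukocyte marker PTPRC was at 0.00685 FPKM or less, while CD68 was at 30 to 39 FPKM. The 3 fibroblast markers summed to 5.21 to 5.98 FPKM in scrambled libraries, 18.2 to 19.5 with siCyclin K#1 and 7.34 to 7.56 with siCyclin K#2, with DCN below 0.1 FPKM in every library. KRT7 and CD3E were not analysed here. The part of these cell type markers in the receptor results was not tested. In bulk RNA, fewer cells of a kind and less RNA per cell cannot be told apart.

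In the scrambled libraries the receptors fell into 2 tiers. LRP5 was highest, at 17.6 ± 0.617 FPKM (SD, n = 3). FZD6 (12.8 ± 1.99 FPKM) and FZD2 (11.1 ± 0.780 FPKM) came next and overlapped each other. FZD5, LRP6 and FZD7 followed at 9.0 ± 0.249, 8.57 ± 2.08 and 7.57 ± 0.418 FPKM, with overlap between each neighboring pair in that order. The low tier held FZD8 (1.88 ± 0.0718 FPKM), FZD1 (1.67 ± 0.145), FZD4 (1.35 ± 0.0875) and FZD3 (1.3 ± 0.0858). FZD8 overlapped FZD1, and FZD4 overlapped FZD3, while FZD1 and FZD4 did not overlap. After Cyclin K depletion LRP6 moved, by its mean, from the fifth place to the second with either siRNA. In scrambled libraries its range overlapped those of FZD6, FZD2, FZD5 and FZD7. In second place LRP6 overlapped FZD6 with siCyclin K#1 and no neighbor with siCyclin K#2. FZD8 moved from the seventh place to the ninth with siCyclin K#1, where it overlapped FZD1. With siCyclin K#2 FZD8 moved to the tenth place, where it overlapped FZD3.

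**Figure D1:**
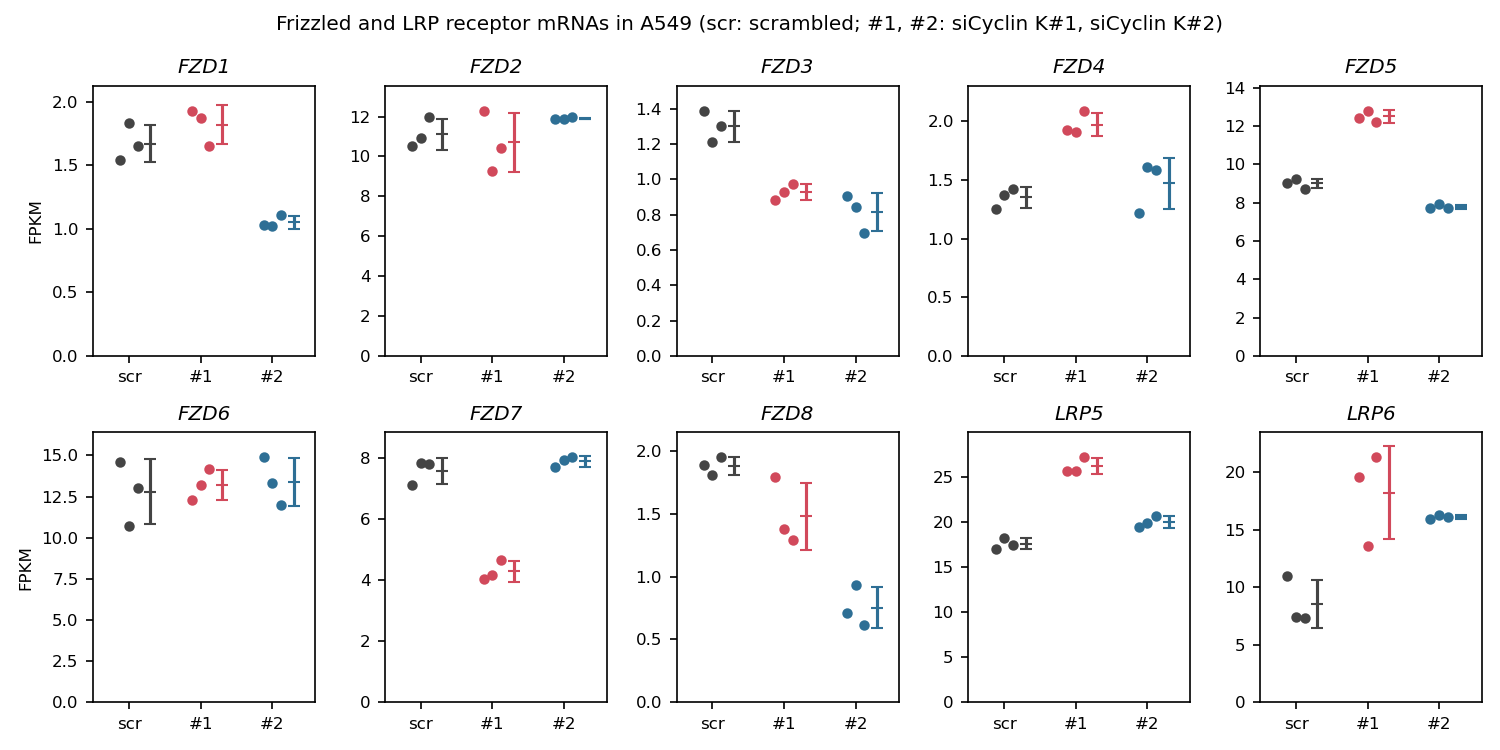
FPKM of each receptor gene (y axis, from 0) in the scrambled (scr), siCyclin K#1 (#1) and siCyclin K#2 (#2) groups. Points are libraries and the bars beside them are the mean ± SD (n = 3). All 6 LRP6 and all 6 LRP5 values with Cyclin K siRNA lie above the scrambled values, and all 6 FZD3 values lie below them.

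Over both siRNAs, 3 of the 10 receptor genes passed an adjusted p of 0.05 in limma: LRP6 and LRP5 rose and FZD3 fell. Of all 21048 genes tested, 28.6% passed in this comparison, but these include many low genes, while every receptor gene had a mean of at least 1 FPKM. When only the 11243 genes with such a mean were tested, 5192 passed, and again 3 receptor genes. All libraries of 1 group lay outside the range of the other for 4 receptor genes, LRP5 and LRP6 above and FZD3 and FZD8 below, and for 32.6% of all genes. The median log2 fold change was 0.04 for the receptors and 0.06 for all genes. Taken one at a time, each siRNA moved 6 receptor genes, as against 44.8% of all genes for siCyclin K#1 and 34.9% for siCyclin K#2. Among the 11243 genes with a mean of at least 1 FPKM, 7507 passed with siCyclin K#1 and 6434 with siCyclin K#2, and again 6 receptor genes with each. With siCyclin K#1 4 receptor genes were higher (26.8% of all genes) and 2 lower (18.1%). With siCyclin K#2 2 were higher (19.8% of all genes) and 4 lower (15.2%). Groups did not overlap for 7 receptor genes with siCyclin K#1 (53.5% of all genes) and for 6 with siCyclin K#2 (46.8%). Both comparisons use the same scrambled libraries. Receptor medians were 0.09 and 0.07, against 0.10 and 0.01 for all genes. No receptor gene reached a fold change over 3 with p under 0.01, the thresholds of the study's methods, which 2.29% of all genes reached over both siRNAs, 4.67% for siCyclin K#1 alone and 1.94% for siCyclin K#2 alone. Among all genes called with siCyclin K#1, 59.7% were higher, and 49.6% after rescaling the libraries to a common median ratio, which moved the median of all genes from 0.102 to -0.004.

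**Figure D2:**
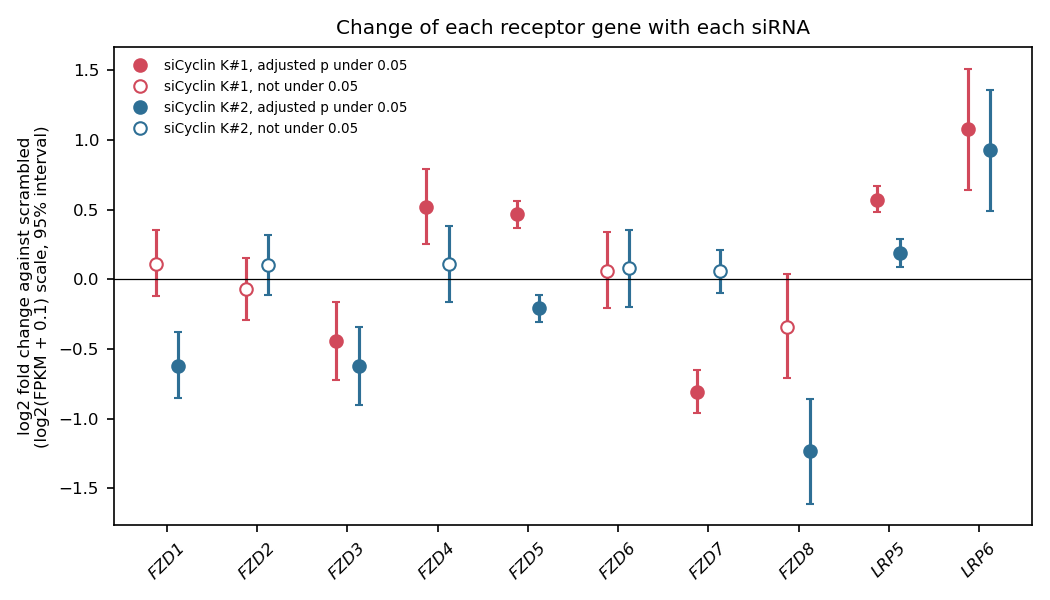
Log2 fold change of each receptor gene against scrambled (y axis, log2(FPKM + 0.1) scale) for siCyclin K#1 (red) and siCyclin K#2 (blue), with 95% intervals from limma. Filled points passed an adjusted p of 0.05. The siRNAs moved LRP6, LRP5 and FZD3 the same way and FZD5 in opposite directions. FZD7 and FZD4 passed with siCyclin K#1 only (between-siRNA differences of -0.87 and 0.41). FZD8 and FZD1 passed with siCyclin K#2 only (0.90 and 0.73).

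LRP6 had the largest change of the 10 genes over both siRNAs. It lies on the minus strand of chromosome 12 of GRCh38, chr12:12116025-12267012, and has up to 24 exons. Its FPKM was 11.0, 7.41 and 7.32 in scrambled controls, 19.6, 13.6 and 21.3 with siCyclin K#1, and 15.9, 16.3 and 16.1 in the siCyclin K#2 group. The lowest of the 6 siCyclin K libraries thus stood above the highest scrambled library, and the first scrambled library and the second siCyclin K#1 library lay nearest to each other. The log2 fold change over both siRNAs was 1.00 ± 0.16 (SE), a fold of 2.00 with a 95% interval of 0.63 to 1.37 on the log2 scale (limma adjusted p = 0.0015). The exact two-sided permutation test gave p = 0.0119, the smallest that 6 against 3 libraries allow. With siCyclin K#1 the log2 fold change was 1.08 ± 0.19 (adjusted p = 0.0016) and with siCyclin K#2 it was 0.93 ± 0.19 (adjusted p = 0.0050), both in limma.

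The siRNAs were not distinguished at LRP6: the log2 difference between siCyclin K#1 and siCyclin K#2 was 0.15 with a 95% interval of -0.28 to 0.59 (limma adjusted p = 0.62). LRP6 was also the receptor gene with the widest spread within groups. Its pooled SD on the log2 scale was 0.27, larger than that of 85.9% of the 10125 genes with a mean of 1 to 30 FPKM, whose median was 0.11. The LRP6 values rest on 2440 to 7251 reads a library. Leaving out any library kept the log2 fold change over both siRNAs between 0.90 and 1.19.

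LRP5, the paralog of LRP6 known for its role in bone mass and retinal vessels, lies on the plus strand at chr11:68312609-68449275 with up to 23 exons. Its FPKM was 17.0, 18.2 and 17.5 in scrambled controls, 25.7, 25.7 and 27.2 with siCyclin K#1, and 19.4, 19.9 and 20.7 in the siCyclin K#2 group. The groups did not overlap, and siCyclin K#2 lay between the other two. With siCyclin K#1 LRP5 rose by 0.57 ± 0.04 (log2, SE; limma adjusted p = 8.8e-06), and with siCyclin K#2 by 0.19 ± 0.04 (limma adjusted p = 0.0095). The difference of 0.39 ± 0.04 between the siRNAs itself passed (limma adjusted p = 0.00023). Over both siRNAs the log2 fold change was 0.38 ± 0.12 (limma adjusted p = 0.039, exact permutation p = 0.0238). This pooled call was lost without the filter on low values, under each rescaling, without a trend in the variance, with the replicate block and with voom on recovered reads (adjusted p = 0.056 to 0.083). It was also lost without any 1 of the scrambled or siCyclin K#1 libraries (adjusted p = 0.059 to 0.12), while the value stayed between 0.33 and 0.43.

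FZD3 and FZD6 are close relatives, both best known for planar cell polarity and axon guidance, and both are on the plus strand of chromosome 8, at chr8:28494205-28574268 and chr8:103298433-103332866, with up to 8 exons each. FZD3 was at 1.39, 1.21 and 1.3 FPKM in scrambled libraries, 0.885, 0.931 and 0.973 under siCyclin K#1, and 0.907, 0.841 and 0.694 in the siCyclin K#2 group. Every scrambled value was above every value with a Cyclin K siRNA. Over both siRNAs the log2 fold change was -0.53 ± 0.13 (SE; limma adjusted p = 0.014, exact permutation p = 0.0119). This call was lost without the first scrambled library (-0.49, limma adjusted p = 0.067) or without the third (-0.53, limma adjusted p = 0.051). With siCyclin K#1 FZD3 fell by 0.44 (limma adjusted p = 0.016, and 0.056 without the first scrambled library) and with siCyclin K#2 by 0.62 (limma adjusted p = 0.0039).

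FZD6 was the most abundant Frizzled mRNA in every group by its mean. It was at 14.6, 10.7 and 13.0 FPKM in scrambled libraries, 12.3, 13.2 and 14.2 under siCyclin K#1 and 14.9, 13.3 and 12 in the siCyclin K#2 group. The groups overlapped throughout, and the log2 fold change over both siRNAs was 0.07 with a 95% interval of -0.17 to 0.31 (limma adjusted p = 0.68), turning to -0.017 after median-ratio rescaling. The log2 difference between siRNAs was -0.01 with an interval of -0.29 to 0.26, and 0.024 after quantile normalization.

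FZD1, FZD2 and FZD7 form another branch of the family, and each is a gene of 1 exon. FZD7, which is linked to stem cells and to β-catenin signaling in epithelial tumors, lies on the plus strand at chr2:202034587-202038445. It was at 7.09, 7.84 and 7.78 FPKM in scrambled controls, 4.03, 4.16 and 4.66 with siCyclin K#1, and 7.69, 7.93 and 8.02 in the siCyclin K#2 group. Only the siCyclin K#1 libraries stood apart. FZD7 fell there to 56.6% of the scrambled mean, a log2 fold change of -0.81 ± 0.07 (SE; limma adjusted p = 1.6e-05). With siCyclin K#2 the value was 0.06, with a 95% interval of -0.10 to 0.21 (limma adjusted p = 0.57), and -0.02 after quantile normalization. The difference between siRNAs was -0.87 ± 0.07 (limma adjusted p = 3e-05).

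FZD1, a receptor for several Wnts, lies on the plus strand at chr7:91264364-91271326. Its FPKM was 1.54, 1.83 and 1.65 with scrambled siRNA, 1.93, 1.87 and 1.65 with siCyclin K#1, and 1.03, 1.02 and 1.11 in the siCyclin K#2 group. Here the siCyclin K#2 libraries stood apart, below all others. FZD1 fell by 0.62 ± 0.10 (log2, SE) with siCyclin K#2 (limma adjusted p = 0.0015). With siCyclin K#1 the value was 0.11, with an interval of -0.12 to 0.35, and it was -0.0028 and -0.081 under the median-ratio and quantile scalings. The siRNAs differed by 0.73 ± 0.10 (limma adjusted p = 0.0008).

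FZD2, which carries Wnt5a signals in several cell types, lies on the plus strand at chr17:44557459-44559570. It was at 10.5, 10.9 and 12 FPKM in scrambled libraries, 12.3, 9.28 and 10.4 under siCyclin K#1 and 11.9, 11.9 and 12 in the siCyclin K#2 group. The groups overlapped. The log2 fold change was 0.02 over both siRNAs with a 95% interval of -0.21 to 0.24 (limma adjusted p = 0.93), and -0.069 after median-ratio rescaling. Its feature carries a StringTie locus name, and the coordinates given are those of the annotated gene. At the annotated length of 2112 bases, its values were whole read numbers in 1 of 9 libraries. The same check gave 3 of 9 libraries for LRP5, and all 9 for every other receptor gene. The extent of the FZD2 and LRP5 features was not checked, so the levels and reads of both genes are less certain.

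FZD5 and FZD8, which form a branch with strong β-catenin activity, differed between the siRNAs. FZD5 has 2 exons and lies on the minus strand at chr2:207762586-207769563. Its FPKM was 9.03, 9.23 and 8.73 with scrambled siRNA, 12.4, 12.8 and 12.2 with siCyclin K#1 and 7.70, 7.90 and 7.69 in the siCyclin K#2 group. The 3 groups were fully separated, with scrambled in the middle. FZD5 rose by 0.47 ± 0.04 with siCyclin K#1 (log2, SE; limma adjusted p = 2.5e-05) and fell by 0.21 ± 0.04 with siCyclin K#2 (limma adjusted p = 0.0044). The pooled value of 0.13 ± 0.20 (limma adjusted p = 0.67) therefore averages opposite changes. Its spread within groups was 0.03 on the log2 scale, with 3.01% of genes at like levels having a smaller one.

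FZD8, a gene of 1 exon on the minus strand at chr10:35638249-35642278, was at 1.89, 1.81 and 1.95 FPKM with scrambled siRNA, 1.79, 1.38 and 1.29 with siCyclin K#1, and 0.710, 0.934 and 0.615 in the siCyclin K#2 group. Each siRNA group lay below the scrambled group, and siCyclin K#2 lay lowest. With siCyclin K#2 FZD8 fell to 40.0% of the scrambled mean, a log2 fold change of -1.23 ± 0.16 (SE; limma adjusted p = 0.00043), the largest fall among the 10 genes. With siCyclin K#1 the value was -0.34 ± 0.16 (limma adjusted p = 0.13), and -0.54 after quantile normalization (limma adjusted p = 0.023). The difference between the siRNAs was 0.90 ± 0.16 (limma adjusted p = 0.0034). Over both siRNAs the value of -0.78 ± 0.29 did not pass in limma (adjusted p = 0.071). It passed after median-ratio rescaling (0.039), quantile normalization (0.023), with voom (0.046) and without the first siCyclin K#1 library (0.025). These values rest on 79 to 257 reads a library.

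FZD4, the receptor for norrin in retinal vessels, where it pairs with LRP5, has 2 exons and lies on the minus strand at chr11:86945679-86955391. Its FPKM was 1.25, 1.37 and 1.42 with scrambled siRNA, 1.92, 1.91 and 2.09 with siCyclin K#1, and 1.22, 1.61 and 1.58 in the siCyclin K#2 group. The siCyclin K#1 libraries lay above all others, while siCyclin K#2 overlapped scrambled. FZD4 rose by 0.52 ± 0.12 with siCyclin K#1 (log2, SE; limma adjusted p = 0.0063, and 0.051 after quantile normalization). With siCyclin K#2 the value was 0.11, with an interval of -0.16 to 0.38. The difference of 0.41 between siRNAs (limma adjusted p = 0.030) was lost after either rescaling (adjusted p = 0.064 and 0.11), without any 1 siCyclin K#1 library, or without the first siCyclin K#2 library (adjusted p = 0.060 to 0.093). Over both siRNAs the value was 0.32 (limma adjusted p = 0.18, and 0.044 without the first siCyclin K#2 library).

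In all, 6 receptor genes differed between the siRNAs, FZD1, FZD4, FZD5, FZD8 and LRP5 being higher and FZD7 lower with siCyclin K#1. Of all genes tested, 29.4% differed (17.1% higher and 12.3% lower). When only the 11243 genes with a mean of at least 1 FPKM were tested, 5476 passed, and again 6 receptor genes. The same 6 genes had groups that did not overlap, as had 42.7% of all genes, and none passed a fold of 3 with p under 0.01, as 1.53% of all genes did. Of all genes called in this comparison, 58.1% were higher with siCyclin K#1, and 46.8% after median-ratio rescaling. CCNK itself was at 0.809 FPKM with siCyclin K#1 and 0.844 FPKM with siCyclin K#2. Since siRNAs can also act on mRNAs that match their seed, bases 2 to 8 of the guide strand, the longest annotated 3′ UTR of each receptor gene was searched on its sense strand for the seed match of siCyclin K#1 (GTGATAA) and of siCyclin K#2 (TACAGGT). These letters follow from the siRNA sequences given in the methods, read as sense strands whose last base lies opposite guide base 1. The motifs do not overlap each other at any site found. Among 11406 tested genes with a 3′ UTR, 10.6% held the first motif and 13.2% the second.

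No match for either siRNA was found in FZD2, FZD5, FZD6, FZD7, FZD8, LRP5 or LRP6. The 3′ UTRs of FZD2 and LRP5 are only 184 and 205 bases long. Among 3′ UTRs of like length to these, 0.464 to 1.79% held a given motif, so a match there was unlikely beforehand. FZD1 had 1 match for each siRNA, FZD3 had 1 for each, and FZD4 had 2 for siCyclin K#2. The sites of FZD1 and FZD4 are shown because both genes differed between the siRNAs. Each is printed 5′ to 3′ on the mRNA strand from GENCODE 29 transcripts FZD1-201 and FZD4-201 (GRCh38), with 8 bases on each side and the seed match in capitals.
FZD1, siCyclin K#1 motif, chr7:91269516-91269538, plus strand: aacattttGTGATAAaatgacaa
FZD1, siCyclin K#2 motif, chr7:91269470-91269492, plus strand: aataccttTACAGGTtaaaaata
FZD4, siCyclin K#2 motif, chr11:86948112-86948134, minus strand: aagtcagtTACAGGTggttttaa
FZD4, siCyclin K#2 motif, chr11:86947068-86947090, minus strand: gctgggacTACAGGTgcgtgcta

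FZD3, with a match for each siRNA, was lower with each (log2 fold changes of -0.44 and -0.62). FZD1, also with a match for each, passed the test with siCyclin K#2 only (0.11 and -0.62). FZD4, with 2 matches for siCyclin K#2, was at 1.47 FPKM there against 1.35 in scrambled libraries. Of 1142 3′ UTRs between 0.8 and 1.25 times as long as that of FZD1 (4502 bases), 26.0% held the first motif and 32.1% the second. Among 836 of like length to that of FZD4 (5463 bases), 35.8% held the second. Among 126 of like length to that of FZD3 (11257 bases), 47.6% held the first and 61.1% the second. A match describes letters only, and its part in the changes was not tested.

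The summed Frizzled mRNA overlapped between the groups as deposited, but not under every scaling. The 8 Frizzled genes summed to 46.7 ± 1.56 FPKM (SD, n = 3) in scrambled libraries, 46.8 ± 1.10 with siCyclin K#1 and 45.1 ± 1.24 in the siCyclin K#2 group, and the ranges overlapped. After median-ratio rescaling the sums ran from 45.7 to 49.2 FPKM in scrambled libraries and from 42.7 to 45.2 with siCyclin K#1, without overlap, and from 43.5 to 45.8 with siCyclin K#2. After quantile normalization siCyclin K#2 (43.1 to 45.4 FPKM) lay below scrambled (46.7 to 49.3) and siCyclin K#1 (44.8 to 47.0) overlapped it. Makeup differed between the siRNAs. FZD5 was 19.3 ± 1.16% of the sum in scrambled libraries, 26.6 ± 1.35% with siCyclin K#1 and 17.2 ± 0.459% in the siCyclin K#2 group. FZD7 was 16.2 ± 1.25%, 9.14 ± 0.679% and 17.5 ± 0.834%. FZD8 was 4.03 ± 0.0458%, 3.17 ± 0.536% and 1.67 ± 0.340%. FZD6 and FZD2 together with FZD5 and FZD7 made up most of the sum in every library.

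LRP5 and LRP6 together were at 28, 25.6 and 24.8 FPKM in scrambled controls, 45.4, 39.3 and 48.5 with siCyclin K#1, and 35.3, 36.2 and 36.8 in the siCyclin K#2 group. The ratio of this sum to the Frizzled sum, which no common factor for a library can change, was 0.560 ± 0.0371 (SD, n = 3) in scrambled libraries, 0.947 ± 0.0808 with siCyclin K#1 and 0.801 ± 0.0393 in the siCyclin K#2 group. Every siCyclin K library had a ratio of at least 0.766, and every scrambled library one of at most 0.591. As these sums were formed with the members' changes known, they carry no test.

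**Figure D3:**
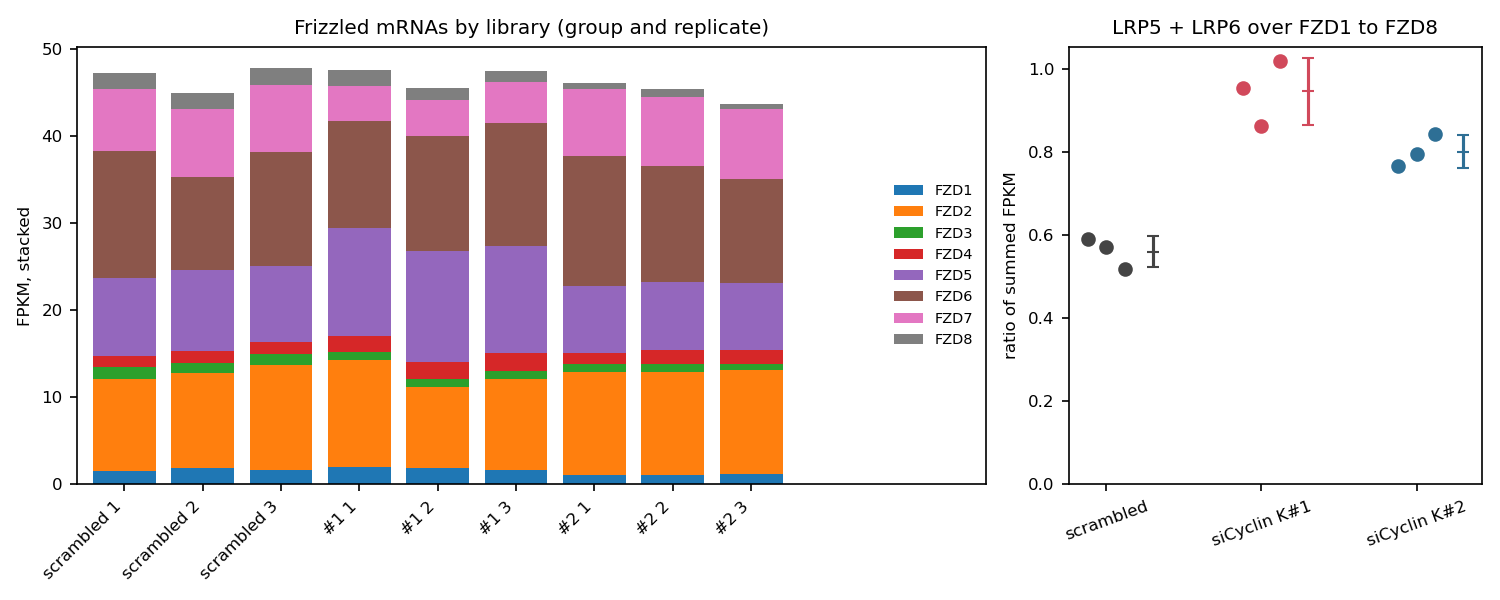
Left, FPKM of the 8 Frizzled genes stacked for each of the 9 libraries (#1 and #2 are siCyclin K#1 and siCyclin K#2, followed by the replicate number). Right, LRP5 plus LRP6 over the Frizzled sum, with points for libraries and the mean ± SD (n = 3). Bar heights stay between 43.7 and 47.8 FPKM, while the ratio goes from 0.560 in scrambled libraries to 0.947 and 0.801.

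The receptor genes also differ in structure. LRP5 and LRP6 span 136667 and 150988 bases, while FZD1, FZD2, FZD7 and FZD8 have no intron. For protein-coding genes with a mean of at least 1 FPKM, those spanning over 100 kb (n = 1790) had a median log2 fold change of 0.28 over both siRNAs, and 40.9% of them rose while 8.60% fell. Those with 1 exon (n = 149) had a median of -0.19, with 14.1% higher and 32.9% lower. Among genes with more than 2 exons (n = 8820) the median was 0.08, with 27.2% higher and 15.8% lower, so higher was the more common direction there too, as it was among all genes tested (17.0% higher and 11.5% lower). Of the intronless receptor genes, none passed over both siRNAs. FZD7, FZD8 and FZD1 fell with 1 siRNA each, and FZD2 passed the test with neither. Among genes with 1 exon, 20.1% rose and 38.3% fell with siCyclin K#1, and 17.4% rose and 43.6% fell with siCyclin K#2. The part of gene structure in the receptor changes was not tested.

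The 3 genes with a mean of at least 1 FPKM whose log2 changes lay nearest to those of LRP6, by Euclidean distance over the 9 libraries, were CACNB3 (0.43), ARHGAP39 (0.50) and MAPT (0.51), among 11243 genes. CACNB3, a calcium channel subunit, went from 1.11 ± 0.261 FPKM to 2.39 ± 0.219 with siCyclin K#1 and 2.31 ± 0.0581 in the siCyclin K#2 group. For FZD3 the nearest were PRKAA1 (0.23), RAD9A (0.27) and GNPDA2 (0.27). PRKAA1, a catalytic subunit of AMP-activated kinase, went from 18.5 ± 0.0829 FPKM to 13.8 ± 0.235 and 11.5 ± 0.633.

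Genes that act with the receptors were counted in lists. Changes are log2 fold changes over both siRNAs, levels are mean FPKM in the scrambled, siCyclin K#1 and siCyclin K#2 groups in that order, and a gene is said to have risen or fallen where its adjusted p in limma was under 0.05. Over both siRNAs 17.0% of all genes rose and 11.5% fell. With siCyclin K#1 alone 26.8% rose and 18.1% fell (median 0.10). With siCyclin K#2 alone 19.8% rose and 15.2% fell (median 0.01). Several lists counted differently with each siRNA. Of 9 other Frizzled-class genes and co-receptors tested, 2 rose and 1 fell (median -0.17, against 0.06 for all genes). Taken alone, siCyclin K#1 gave 4 that rose and 1 that fell (median 0.16), and with siCyclin K#2 2 rose and 4 fell (median -0.38). SMO, the Hedgehog signal transducer of the Frizzled class, rose by 0.69 with siCyclin K#1 and fell by 0.38 with siCyclin K#2, and PTK7, a Wnt co-receptor, rose by 0.29 and fell by 1.05. These 2 genes were chosen after their values were seen. GPC6, a glypican, rose by 1.49, with levels of 9.05, 28.3 and 23.1 FPKM. ROR1, a Wnt5a receptor, rose by 0.60 (4.77, 6.81 and 7.71 FPKM), and RYK, another Wnt receptor, fell by 0.42 (4.92, 3.58 and 3.69 FPKM).

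Of 4 tested genes of the R-spondin module, 1 rose and 1 fell (median 0.16). This module controls how long Frizzled and LRP6 stay at the surface. With siCyclin K#2 2 rose and 2 fell, 1 of the falls on a feature that RNF43 shares with SUPT4H1. LGR4, an R-spondin receptor, rose by 0.44 (74.6, 108 and 95.5 FPKM), and ZNRF3, the ubiquitin ligase that removes the receptors, fell by 0.35 (6.90, 5.13 and 5.64 FPKM). Among 8 genes of receptor folding and trafficking, 3 rose and 1 fell (median 0.26). MESD, the chaperone that LRP5 and LRP6 need to fold, was at 1.67, 2.16 and 2.11 FPKM with scrambled siRNA, 6.31, 6.28 and 3.59 with siCyclin K#1 and 6.23, 6.0 and 5.69 in the siCyclin K#2 group. It rose by 1.46 ± 0.18 (SE), with every siCyclin K library above every scrambled library. TMEM59 rose by 0.34, and USP8, which deubiquitylates Frizzled, fell by 0.23.

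Of 11 kinases and cytoplasmic partners of LRP5 and LRP6, 4 rose over both siRNAs (median 0.10). They include CSNK1G3, of the casein kinase family that phosphorylates LRP6 (0.93, with levels of 5.63, 9.91 and 11.9 FPKM), GSK3B, which acts on both LRP6 and β-catenin (0.79, with 10.3, 20.5 and 15.7 FPKM), and AXIN1 (0.56, with 1.64, 2.29 and 2.67 FPKM). Of these 11, 6 passed with siCyclin K#1, all higher, and with siCyclin K#2 4 rose and 3 fell. CSNK1G1, among the 6, and CDK14, among the 3, lie on features shared with other genes. Of 7 secreted antagonists and their co-receptors, 4 rose and 1 fell (median 0.36), while 6 rose and 1 fell with siCyclin K#1 and 5 rose and 2 fell with siCyclin K#2. IGFBP4, an IGF-binding protein also described as an inhibitor at FZD8 and LRP6, rose by 2.54 from 186 to 1310 and 895 FPKM. SFRP4, a secreted Frizzled-related protein, rose by 2.29 (0.307, 3.38 and 1.04 FPKM), and KREMEN2, a Dickkopf receptor, by 1.21. SFRP1 fell by 0.84 (15.1, 8.89 and 7.92 FPKM).

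Of 9 tested Wnt ligands, 6 rose and 1 fell (median 0.87), and mean levels over the 9 libraries ran from 0.152 (WNT5B and WNT11) to 11.6 FPKM (WNT7B). WNT9A rose by 1.65 (0.255, 1.00 and 0.95 FPKM), WNT6 by 1.49 (0.147, 1.09 and 0.306 FPKM) and WNT3 by 0.86 (0.900, 1.73 and 1.66 FPKM), while WNT10B fell by 1.05 (1.62, 0.681 and 0.797 FPKM). Of 9 planar cell polarity partners, 4 rose and 2 fell (median 0.78), while 7 rose and 2 fell with siCyclin K#1 (median 1.13) and 6 rose and 3 fell with siCyclin K#2 (median 0.32). PRICKLE2, VANGL1 and CELSR1 rose by 1.32, 0.99 and 0.88, and PRICKLE3 fell by 0.68. A feature shared by PRICKLE4 and TOMM6, whose reads cannot be told apart, fell by 0.85.

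Among 8 β-catenin target genes, 2 rose and 2 fell (median 0.30). BIRC5, which encodes survivin, and JUN rose by 0.91 and 0.69, while CCND1 and the adhesion receptor CD44 fell by 1.96 and 0.65. The targets that passed thus did not move one way, and other known targets were not analysed here. Of those that did not pass, MYC varied too widely within groups to show a direction (6.71 ± 8.69, 10.1 ± 13.0 and 8.43 ± 10.1 FPKM, SD). TCF7, NKD1 and NOTUM were low, at means of 0.462, 0.157 and 0.184 FPKM over the 9 libraries. In the other LRP family genes, 2 of 8 rose and 1 fell (median 0.16). With siCyclin K#1 4 rose, of which LRP3 lies on a feature shared with another gene, and 2 fell. With siCyclin K#2 2 rose and 2 fell. LRP1, an endocytic receptor, rose by 1.12 (2.85, 8.24 and 4.81 FPKM), and LRPAP1, a chaperone of the family, rose by 0.71 (5.15, 9.0 and 8.03 FPKM). LRP8, a reelin receptor, fell by 0.68 (13.7, 7.14 and 10.1 FPKM).

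**Figure D4:**
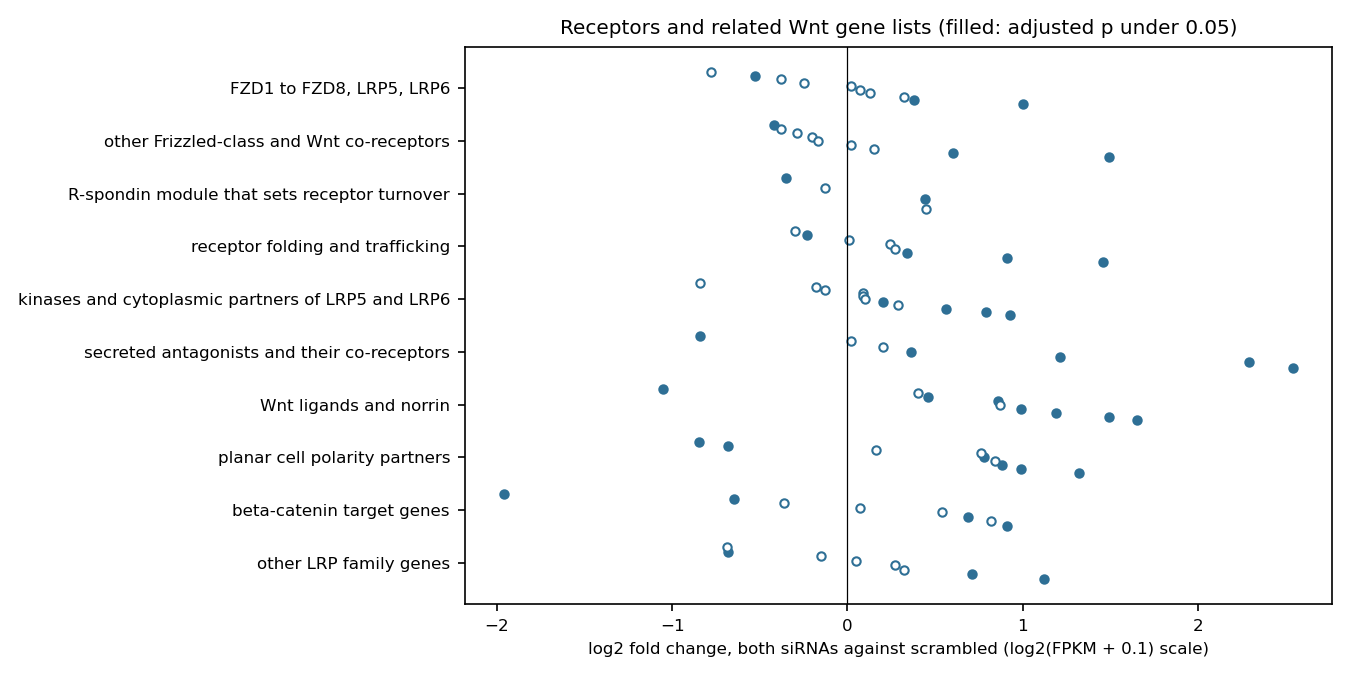
Log2 fold change over both siRNAs against scrambled (x axis, log2(FPKM + 0.1) scale) for the 10 receptor genes and the tested genes of 9 related lists (y axis). Each point is a gene, filled where the adjusted p in limma was under 0.05. Receptor genes lie between -0.78 and 1.00, and the largest rise and fall in the lists are IGFBP4 (2.54) and CCND1 (-1.96).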

How the data were processed

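Total RNA of 9 A549 libraries was sequenced, and the authors deposited FPKM per feature for each library. The submitters' processing notes name StringTie 1.3.3b. The aligner is not given in the sources used here, and coordinates are those of GRCh38 and GENCODE 29. Groups, replicate numbers and time came from the labels, and the siRNA dose from the methods. No column of other samples was found (0).

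Rows of 1 reference gene were summed. Tests ran on the 21048 genes that reached 0.1 FPKM in 3 or more libraries. Values were compared as log2(FPKM + 0.1), which understates changes of low genes, with limma 3.58.1 (lmFit, eBayes with trend) in R 4.3.3 and Benjamini-Hochberg adjustment over all genes tested. Both siRNAs were fitted as 2 groups against scrambled, and each siRNA in a fit of 3 groups. Single genes had exact two-sided permutation tests in scipy 1.17.1, for which 3 against 3 libraries allow no p below 0.1. Low values were whole multiples of 1 read (76.88 to 78.02% of nonzero values within 0.02), which gave depth and the reads used for limma-voom. Replicates were not duplicates (chi-square per degree of freedom 15.58 to 20.43). In a simulation of the comparison over both siRNAs, 176 of 200 genes changed by 1 log2 unit were recovered among 19265 genes, and 10 unchanged genes were called. The simulation gave both siRNAs the same change. In the data 29.4% of all genes differed between the siRNAs, so this recovery does not carry over to such genes. The changed genes were drawn only from those with a positive mean log2(FPKM + 0.1) in scrambled libraries, with normal noise. In the data 28.6% of genes passed over both siRNAs, a larger share than was changed in the simulation. The recovered and wrongly called counts thus do not describe low genes or data with that share.

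Named besides the 10 receptors were CCNK and CCND1, for each list the up to 3 largest rises and 3 largest falls over both siRNAs among genes with an adjusted p under 0.05 and a mean of at least 0.5 FPKM, and for LRP6 and FZD3 the 3 nearest genes. The receptors and the lists were chosen with earlier results of these data known, and 1 gene of the lists is not reported here. Seed matches were searched in the longest 3′ UTR of each gene, and no sequence of chromosome 8 is printed. Alternatives were other pseudocounts, filters, scalings, thresholds and variance models, a replicate block, voom and leaving out each library.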

Additional observations from a re-analysis of the deposited data

Results flagged for a closer look

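MESD was the 1 gene of 42 searched in which a library stood apart among the 6 siCyclin K libraries: the third siCyclin K#1 library was at 3.59 FPKM, below 5.69 to 6.31 in the other 5, and this gap was 0.77 of the whole range. At the 95% limit used, 2.1 such genes would be found by chance among 42.

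Of the 42 receptors and other named genes, 22 differed between siCyclin K#1 and siCyclin K#2 at an adjusted p under 0.05 in limma, as did 29.4% of all genes tested. Most of the named genes were picked for large changes against scrambled. Taking siCyclin K#2 from siCyclin K#1 on the log2 scale gave 0.73 for FZD1, 0.41 for FZD4, 0.68 for FZD5, -0.87 for FZD7, 0.90 for FZD8 and 0.39 for LRP5. The value was 1.62 for SFRP4, 1.52 for WNT6, 1.09 for KREMEN2 and 0.55 for IGFBP4 among ligands and antagonists. LRP1, PRICKLE2, GSK3B and GPC6 were higher with siCyclin K#1 by 0.76, 0.46, 0.39 and 0.30, and TMEM59 and LGR4 by 0.18 and 0.17. JUN, LRP8, CD44, CCND1, PRICKLE3 and ROR1 were lower with siCyclin K#1, with values of -0.60, -0.50, -0.44, -0.30, -0.30 and -0.18.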

How the results depend on the processing

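Over all comparisons and alternatives, 710 values of the 10 receptor genes kept their direction and their side of the threshold, 22 lost a call, 7 gained one and 21 changed sign, all of them values without a call. The count of receptor genes called over both siRNAs was 3 and went to 1 without the first or the third scrambled library (1 to 4 when leaving out each library in turn). It was 5 to 6 for siCyclin K#1, 6 for siCyclin K#2 and 5 to 6 between the siRNAs. At a fold change over 3 with p under 0.01 the counts were 0 in all 4 comparisons. With an adjusted p under 0.05 and a fold over 2 they were 1, 1 and 1 against scrambled (over both siRNAs, siCyclin K#1 and siCyclin K#2) and 0 between siRNAs, where 6 genes passed limma without a fold limit. The Frizzled sum moved to 48.4 FPKM in scrambled libraries after quantile normalization and to 44.2 FPKM with siCyclin K#1 after median-ratio rescaling, against 48.0 and 44.8 FPKM in the scrambled and siCyclin K#2 groups under the latter.

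The sign changes were at FZD1 (siCyclin K#1, -0.0028 median-ratio and -0.081 quantile), FZD2 (both siRNAs, -0.069 median-ratio, -0.047 quantile and -0.0016 voom) and FZD6 (-0.017 over both siRNAs and -0.061 with siCyclin K#1 after median-ratio rescaling, and 0.024 between siRNAs after quantile normalization), and at FZD7 (siCyclin K#2, -0.02 quantile). On leaving out single libraries FZD2 ranged from -0.025 to 0.071 over both siRNAs and from -0.18 to 0.023 with siCyclin K#1. FZD6 ranged from -0.052 to 0.17 over both siRNAs, -0.06 to 0.17 with siCyclin K#1, -0.045 to 0.18 with siCyclin K#2 and -0.091 to 0.064 between siRNAs. The difference of FZD2 between siRNAs passed without the first siCyclin K#1 library (-0.28, limma adjusted p = 0.026). The causes were not tested.

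Equal replicate numbers did not mark paired libraries (correlation of deviations -0.0711 to 0.0379, mean -0.00585). With the replicate block 39 of 40 receptor calls kept their side and LRP5 over both siRNAs lost its call (0.38, limma adjusted p = 0.083). Depth limits FZD8 and FZD1 most, with at least 79 and 230 reads a library.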
